A study of Mus musculus with 4 samples.

Results

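Genes that mark the fields of the hippocampus were read on arrays of brain cortex from male SAMP8 mice. This inbred strain shows accelerated ageing, with early loss of learning and memory. The members were 9 genes chosen by symbol, of which 8 had a probe set among the 22206 gene probe sets tested, 1 each. Zbtb20, a zinc finger transcription factor needed for hippocampal development, had no probe set under that symbol and was not analysed here. The TCQA mice were given oral TCQA (the labels do not spell out the name) daily for 1 month, at a dose of 5 mg/kg, beginning when they were 11 months old. The control mice, of the same strain, sex, age and housing, were given purified water. Each group had 2 arrays. The labels give the tissue as brain cortex but neither its dissection nor whether 1 mouse or several supplied a group's arrays. The p-values therefore measure only how far these samples spread, some of which may be technical.

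The hippocampus lies directly beneath the cortex and is divided into the dentate gyrus, whose granule cells receive the main cortical input, and the fields CA3, CA2 and CA1, which pass the signal on through pyramidal cells to the subiculum. In mouse brain Dsp, Lct and Tdo2 mark dentate granule cells, Wfs1, Fibcd1 and Spink8 mark CA1, and Iyd and Dkk3 mark CA3. These genes differ in how well they separate hippocampus from cortex. Wfs1 and Dkk3 are also transcribed in cortical neurons, and Wfs1 in the striatum and amygdala, while the dentate markers are sparse in cortex.

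Against the control probe sets of the same array, the 3 dentate markers were dim on every array, and Wfs1 and Dkk3 were bright on every array. No member passed the test between TCQA and control: 0 of 8 passed limma's moderated test after Benjamini-Hochberg adjustment, against 0% of all gene probe sets, and 0 of 8 had an unadjusted p under 0.05, against 6.24% (1386 of 22206). The depositors' own criterion (over 2-fold change and unadjusted p under 0.05) was met by 0 of 8 members and by 0.374% of all gene probe sets. The members' log2 differences, TCQA minus control, ran from -0.36 to 0.23 with a median of 0.04, and the median over all gene probe sets was 0.01. In bulk tissue, fewer cells of a type and less RNA per cell cannot be told apart.

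The bases just before the start sites of the 6 measured members that matched the RefSeq promoter table (build GRCm38.p6) are shown because the members share a tissue pattern and not a gene family. Each line gives the 60 bases before the start the table uses, which for Fibcd1 lies inside the gene's annotated span (chr2:31813290-31846964) and for the others at its edge, with the letters ATAAA, a form of the TATA box core, in capitals where their first base lies 20 to 40 bases before the start on the strand of the gene.
Dsp (chr13:38151234-38151293, + strand): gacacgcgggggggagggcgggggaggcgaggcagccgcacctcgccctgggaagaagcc
Lct (chr1:128328319-128328378, - strand): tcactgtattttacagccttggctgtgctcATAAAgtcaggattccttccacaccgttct
Tdo2 (chr3:81975729-81975788, - strand): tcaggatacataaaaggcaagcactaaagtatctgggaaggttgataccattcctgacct
Wfs1 (chr5:36988983-36989042, - strand): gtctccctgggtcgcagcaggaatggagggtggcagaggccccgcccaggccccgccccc
Fibcd1 (chr2:31846006-31846065, - strand): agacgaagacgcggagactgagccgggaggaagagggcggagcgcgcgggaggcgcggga
Iyd (chr10:3540214-3540273, + strand): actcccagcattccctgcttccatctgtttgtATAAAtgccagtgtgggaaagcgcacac

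The letters stood in that window in Lct and Iyd, 2 of the 6, and in 4.25% of the 32851 promoters of the table. On the other strand they stood in 0 of the 6 and in 2.25% of all promoters. The letters and the window were chosen after the sequences had been read, and a match is a description of the letters, not a site. The members differed in CpG dinucleotides, which are dense in promoters active in many tissues. Over the 250 bases before the start, Dsp had 22, Wfs1 23 and Fibcd1 34 CpG, against 1 in Lct, 3 in Tdo2 and 5 in Iyd. Over all promoters the median was 6 and the quartiles were 2 and 16. The dentate markers stood on both sides of that median: Dsp over the upper quartile, Tdo2 between the quartiles and Lct under the lower.

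**Figure D1:**
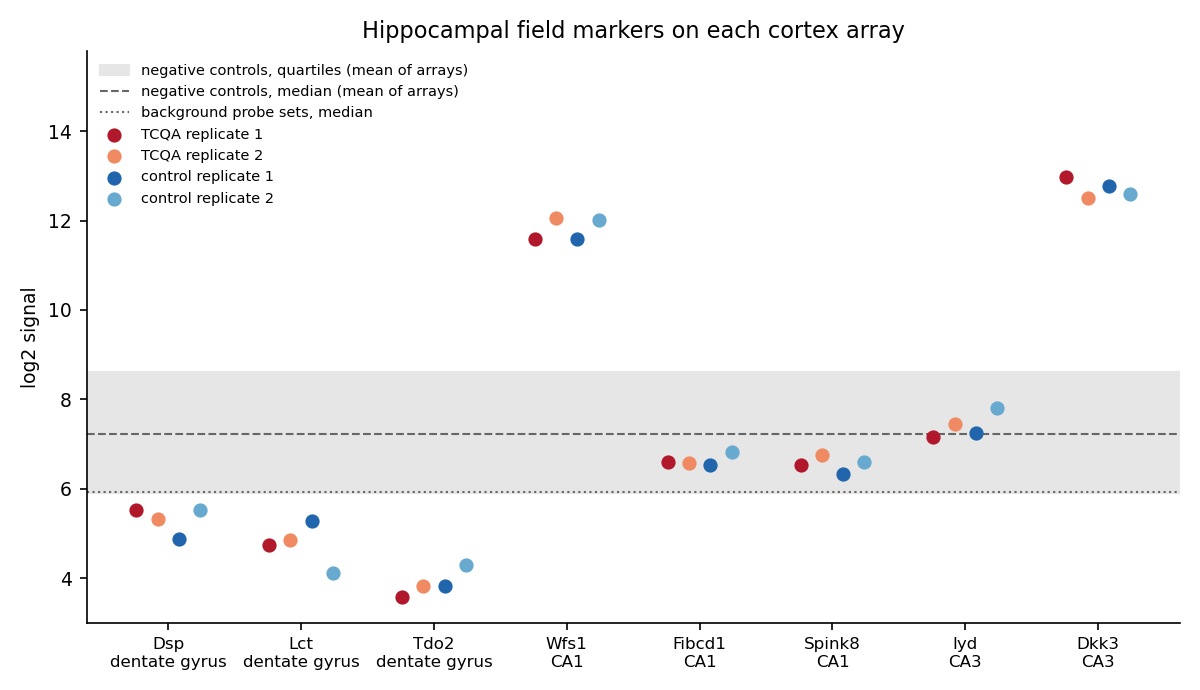
Log2 signal of the 8 measured markers (columns, with the field each marks) on each array (points: TCQA replicates 1 and 2, control replicates 1 and 2), with the quartiles and median of the negative controls and the median of the background probe sets, each averaged over the arrays. Dsp, Lct and Tdo2 lie under the background median on all 4 arrays, while Wfs1 and Dkk3 lie far above the negative controls, between 11.59 and 12.97.

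To judge the levels, each member was set against the control probe sets of the same array. A probe set's brightness depends on its probes as well as on its transcript, so members were not ranked against each other. Over the 5222 negative controls the median was 7.21 and 7.23 on the TCQA arrays and 7.32 and 7.17 on the control arrays. The 23 background probe sets had medians of 6.0 on both TCQA arrays, against 5.90 and 5.84 on the control arrays. The upper quartile of the negative controls lay between 8.55 and 8.75 on the different arrays, so their median marks a dim signal and is not a floor.

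Dsp, which encodes the desmosomal plaque protein desmoplakin, had log2 signals of 5.52 and 5.33 with TCQA, against 4.87 and 5.52 in control. Control replicate 1 was the lowest array, and the groups overlapped. Its difference was 0.23 (SE 0.26, 95% confidence interval -0.39 to 0.85, limma adjusted p = 0.894).

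Lct encodes lactase, the intestinal enzyme that splits milk sugar, and in brain marks granule cells. Its log2 signals were 4.74 and 4.86 with TCQA, against 5.28 and 4.11 in control. The TCQA arrays lay between the control arrays, which were the highest and the lowest. The control pair thus differed by 1.17, the widest range among the members, and 3.83% of all gene probe sets had a range over the 4 arrays as wide. The difference of 0.10 (SE 0.37, 95% confidence interval -0.80 to 1.01) was 0.69 without control replicate 1 (unadjusted p = 0.0305, adjusted p = 0.98 by limma) and -0.48 without control replicate 2.

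Tdo2, tryptophan 2,3-dioxygenase, opens the kynurenine pathway of tryptophan breakdown. It had log2 signals of 3.58 and 3.82 with TCQA, against 3.82 and 4.28 in control. TCQA replicate 2 and control replicate 1 differed in the third decimal only, but both TCQA arrays were under both control arrays. Such a separation of the groups, in either direction, was seen in 1 of 8 members and in 36.6% of all gene probe sets. The difference was -0.36 (SE 0.22, 95% confidence interval -0.90 to 0.19, limma adjusted p = 0.832), and -0.13 without control replicate 2. All 4 values lay under the background medians, so the difference may reflect little of the transcript.

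The dentate markers were thus under the background median on 12 of 12 readings. The order of the arrays differed between them: on control replicate 1 Lct was at its highest and Dsp at its lowest, and on control replicate 2 Lct was at its lowest and Tdo2 at its highest. Their mean log2 signal was 4.61 and 4.67 with TCQA, against 4.66 and 4.64 in control, since the members' changes cancelled. At this signal these 3 probe sets show neither the presence nor the absence of dentate gyrus tissue.

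Among the CA1 markers, Wfs1 encodes wolframin, a membrane protein of the endoplasmic reticulum that is mutated in Wolfram syndrome. Its log2 signals were 11.59 and 12.06 with TCQA, against 11.59 and 12.01 in control. Both arrays numbered 2 were higher than both arrays numbered 1, and the groups overlapped nearly completely. The difference was 0.03 (SE 0.25, 95% confidence interval -0.57 to 0.63, limma adjusted p = 0.993), and the sign was negative without TCQA replicate 2 (-0.21) or without control replicate 1 (-0.18). Striatal neuron markers, of a region where Wfs1 is also transcribed, had list means of 13.15 and 13.71 with TCQA, against 13.42 and 13.66 in control, again with the arrays numbered 2 higher. All 8 striatal genes measured were lowest on TCQA replicate 1. Their part in the Wfs1 values was not tested.

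Fibcd1 encodes a membrane receptor for acetylated sugars. It had log2 signals of 6.59 and 6.57 with TCQA, against 6.52 and 6.83 in control. These values had the narrowest range of the members, 0.31, and control replicate 2 was alone at the top. The difference was -0.10 (SE 0.19, 95% confidence interval -0.56 to 0.37).

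Spink8, a serine protease inhibitor of the Kazal type, had log2 signals of 6.54 and 6.75 with TCQA, against 6.32 and 6.61 in control. Control replicate 1 was the lowest array, and TCQA replicate 1 lay between the control arrays. The difference was 0.18 (SE 0.20, 95% confidence interval -0.30 to 0.66). Fibcd1 and Spink8 are the CA1 markers less known from cortex, and both stayed under the negative control median but over the background median on all 4 arrays. All 3 CA1 markers had their lowest value on control replicate 1, which was the lowest array for 27.1% of all gene probe sets.

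**Figure D2:**
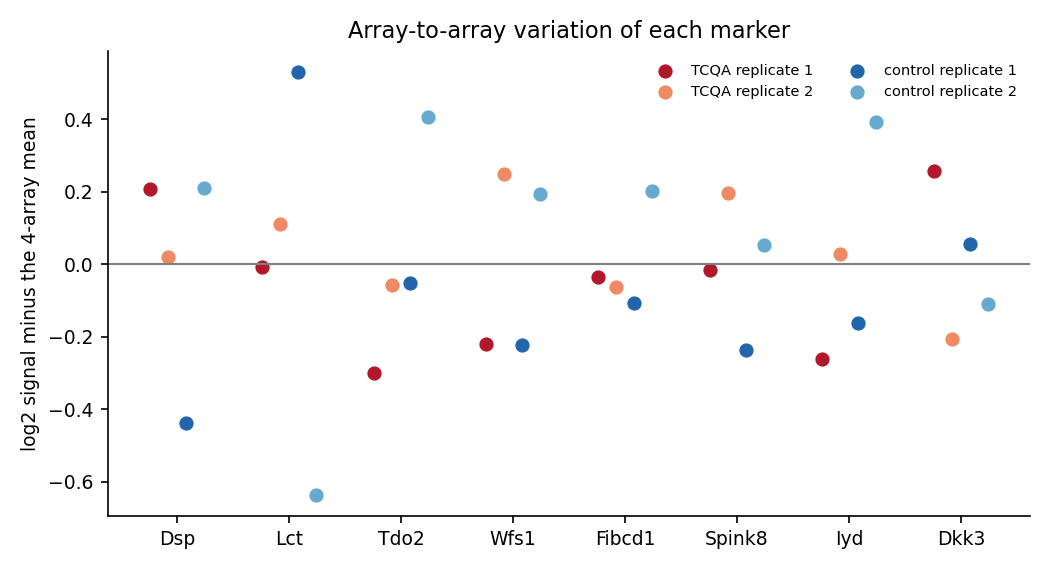
Log2 signal of each of the 8 markers minus its own mean over the 4 arrays (points: TCQA replicates 1 and 2, control replicates 1 and 2). Lct spans 1.17 between the control arrays, and no array is high or low for every marker.

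Of the CA3 markers, Iyd encodes iodotyrosine deiodinase, which recovers iodide in the thyroid. It had log2 signals of 7.15 and 7.44 with TCQA, against 7.25 and 7.81 in control. These stood close to the negative control median, above it on 2 of the 4 arrays, those numbered 2 in each group. The difference was -0.23 (SE 0.25, 95% confidence interval -0.83 to 0.36, limma adjusted p = 0.89), and 0.044 without control replicate 2.

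Dkk3, a secreted glycoprotein of the Dickkopf family, had log2 signals of 12.97 and 12.51 with TCQA, against 12.77 and 12.60 in control. The TCQA arrays were the highest and the lowest, with both control arrays between them. The difference was 0.05 (SE 0.22, 95% confidence interval -0.48 to 0.59, limma adjusted p = 0.982). Unlike the other CA3 marker Iyd, which was highest on control replicate 2, Dkk3 was highest on TCQA replicate 1.

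**Figure D3:**
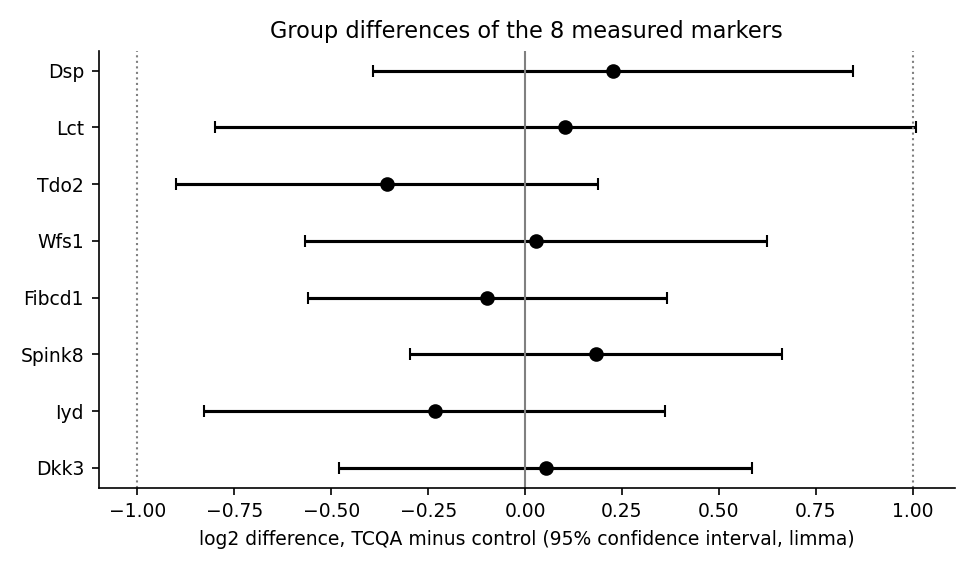
Log2 difference, TCQA minus control, of the 8 markers with 95% confidence intervals from limma. Dotted lines mark a 2-fold change, and all intervals cross 0, the widest being that of Lct (-0.80 to 1.01).

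Across the 8 members, 5 had a higher and 3 a lower mean with TCQA, and over all gene probe sets 51.1% had a higher mean. Adjusted p-values by limma ran from 0.832 to 0.993. The intervals do not show that the groups were alike: taken over the members, the bounds ran from -0.90 to 1.01 on the log2 scale. For Wfs1 the interval allowed a fold of TCQA over control between 0.675 and 1.54, and for Dkk3 between 0.717 and 1.5. The median absolute difference between groups was 0.14 for the members and 0.17 for all gene probe sets. The control pair differed by a median of 0.44 over the members, against 0.21 over all gene probe sets, and the TCQA pair by 0.23, against 0.22. Of the 8 members, 4 were at their highest on control replicate 2 (Dsp in the third decimal only), as were 24.2% of all gene probe sets.

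The control arrays also differed in the signal of genes of choroid plexus and meninges. The 12 choroid plexus genes measured, which mark the epithelium that makes cerebrospinal fluid inside the ventricles next to the hippocampus, had mean log2 signals of 6.78 and 7.49 with TCQA, against 6.10 and 7.84 in control. Control replicate 1 was lowest for 9 of the 12, against 27.1% of all gene probe sets, and control replicate 2 highest for 8, against 24.2%. Of the 12, 4 lay at or above the negative control median. Ttr, the transthyretin gene, named here after its values were seen, was at 12.23 and 14.97 with TCQA, against 7.49 and 16.42 in control. Of the members, Tdo2, Fibcd1, Iyd and Dsp were likewise highest on control replicate 2, within ranges over the arrays of 0.31 to 0.71, against 8.93 for Ttr, and Lct was lowest there. For Dsp, control replicate 2 and TCQA replicate 1 differed in the third decimal only (5.519 and 5.516). Dsp and Tdo2 were under the background median on every array, so the order of their arrays may reflect little of the transcript. Meningeal fibroblast genes had means of 7.95 and 8.08 with TCQA, against 7.18 and 7.89 in control. The part of choroid plexus and meninges in the members' values was not tested.

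A wider set of 35 measured hippocampal genes (36 listed, Ntf3 not analysed here) gave no gene past the adjusted threshold (0 by limma). At an unadjusted p under 0.05, 1 was higher and 0 lower, against 6.24% of all gene probe sets in either direction. The mean was higher with TCQA in 20 and lower in 15, with a median difference of 0.06, and the groups did not overlap in 10 of the 35, 6 higher and 4 lower, where 36.6% of all gene probe sets did not. The lists were read by field.

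Of 10 further granule cell genes, 5 were higher and 5 lower in mean, with a median of -0.05, and 6 lay at or above the negative control median. Prox1, the transcription factor that keeps granule cell identity, was at 8.74 and 8.74 with TCQA, against 8.79 and 8.61 in control. Prox1 is also transcribed in cortical interneurons, and it was named after its values were seen. Plk5, a polo-like kinase family member, was at 8.07 and 8.07 with TCQA, against 8.54 and 8.29 in control, a difference of -0.35 (SE 0.18, limma adjusted p = 0.816). Fam163b was at 10.72 and 9.93 with TCQA, against 11.07 and 10.49 in control, with overlapping groups. The dim cytokine gene Il16 differed by -0.37 (SE 0.21), and the cation channel gene Trpc6, also dim, by 0.27 (SE 0.19).

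The other CA1 genes had 2 of 6 higher, with a median of -0.10. Man1a, a Golgi mannosidase, differed by 0.44 (SE 0.31), Ndst4, a heparan sulfate modifying enzyme, by -0.39 (SE 0.38), and the matrix protein gene Ccn3 by -0.30 (SE 0.29). The groups of these 3 genes overlapped. Mpped1 differed by -0.18 (SE 0.17).

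CA2, a small field, was represented by 5 genes with 3 higher in mean and a median of 0.06. Cacng5, an auxiliary subunit of AMPA receptors, was at 8.92 and 7.20 with TCQA, against 7.35 and 7.42 in control. A single array, TCQA replicate 1, stood high, and the difference of 0.68 had an SE of 0.52. Amigo2, an adhesion molecule, differed by 0.36 (SE 0.18, limma adjusted p = 0.809). Rgs14, which limits plasticity in CA2 neurons, differed by -0.21 (SE 0.18).

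The other CA3 genes had 4 of 7 higher and a median of 0.21. Plagl1, a zinc finger transcription factor, was at 7.98 and 7.91 with TCQA, against 7.38 and 7.69 in control, a difference of 0.41 (SE 0.19, limma adjusted p = 0.799). Bok, a BCL2 family member, differed by 0.47 (SE 0.24), and the adhesion gene Nectin3 by 0.26 (SE 0.21). Cdh24 differed by -0.26 (SE 0.20). The differences of these genes went both ways.

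Mossy cell genes of the hilus had 3 of 4 higher, with a median of 0.10. Calcrl, a receptor for calcitonin-related peptides that endothelial cells also carry, differed by 0.46 (SE 0.21). Ajap1 differed by 0.16 (SE 0.19) and Ociad2 by 0.04 (SE 0.21). Nmb, neuromedin B, was at 6.67 and 5.27 with TCQA, against 5.95 and 6.28 in control, so that the TCQA arrays were the highest and the lowest.

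The subiculum genes were all 3 higher in mean, and Fn1, the fibronectin gene, was the 1 gene of the wider set with an unadjusted p under 0.05. It had log2 signals of 8.06 and 8.20 with TCQA, against 7.67 and 7.54 in control, a difference of 0.52 (SE 0.18, limma adjusted p = 0.787). Fn1 is also made by vessels and meninges, and 9 of 9 meningeal fibroblast genes had a higher mean with TCQA, against 51.1% of all gene probe sets. Their differences ran from 0.01 to 1.5. The groups did not overlap in 3 of the 9, against 36.6% of all gene probe sets, and 4 of the 9 lay at or above the negative control median. Of these 9 genes, 7 were lowest on control replicate 1 and 2 on control replicate 2, where Fn1 was lowest. Their list mean was 7.18 on control replicate 1 and 7.89 on control replicate 2. At an unadjusted p under 0.05, 2 of the 9 were higher, against 6.24% of all gene probe sets in either direction. These were Slc6a13, by 0.63, and Ogn, by 1.5. Ogn also met the depositors' criterion, as did 0.374% of all gene probe sets, and 0 of the 9 passed limma's adjusted threshold. The part of the meningeal genes in the Fn1 difference was not tested. Without TCQA replicate 1 the Fn1 difference was 0.59 (unadjusted p = 0.0435, adjusted p = 0.744 by limma). Without TCQA replicate 2 it was 0.45 (unadjusted p = 0.105, adjusted p = 0.749 by limma), without control replicate 1 it was 0.59 (unadjusted p = 0.0535, adjusted p = 0.98 by limma), and without control replicate 2 it was 0.46 (unadjusted p = 0.11, adjusted p = 0.837 by limma). The peptide gene Nts was at 7.57 and 9.08 with TCQA, against 7.44 and 8.33 in control, higher on both arrays numbered 2. Ly6g6e was under the background median on every array and highest on TCQA replicate 1, at 5.51 and 4.11 with TCQA, against 4.35 and 4.10 in control.

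**Figure D4:**
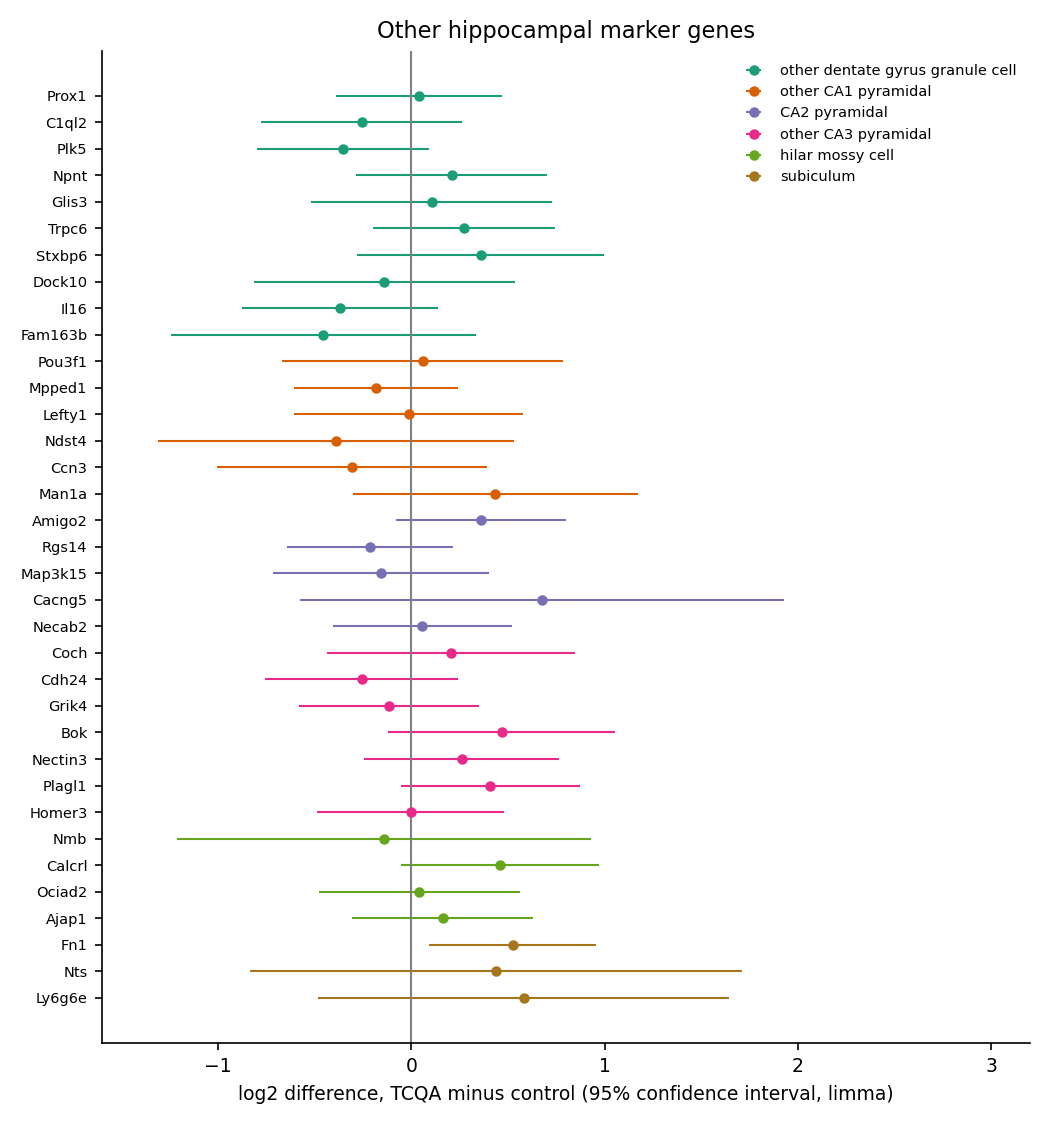
Log2 difference, TCQA minus control, of the 35 other hippocampal genes with 95% confidence intervals from limma, coloured by field. The interval of Fn1 lies above 0 and the other 34 cross it.

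Genes of cortical layers, the labelled tissue, were read in the same way. Of the 16 measured, 15 lay at or above the negative control median, as did 10971 of all 22206 gene probe sets. Of the dentate genes 0 of the 3 members and 6 of the 10 further genes did. Over all hippocampal fields, 3 of the 8 measured members and 22 of the 35 other genes did. Whether the signal of these genes came from hippocampus or from cortex was not tested. The cortical list had a mean log2 signal of 10.65 and 10.41 with TCQA, against 10.74 and 10.49 in control. Of its genes 8 were higher in mean with TCQA and 8 lower, with a median difference of -0.02. The further dentate list moved over the arrays in the same order as the cortical list only in part: TCQA replicate 2 was the lowest for both, at 8.14 for the dentate list, but the top array was TCQA replicate 1 for the dentate list (8.39) and control replicate 1 for the cortical list. For both lists TCQA replicate 2 was the highest array for 0 genes.

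Of the lists for other regions, the striatal list had 8 of 8 genes at or above the negative control median and the thalamic list 9 of 10. The astrocyte list, of a cell type and not of a region, had 10 of 10. Thalamic markers had means of 9.26 and 9.63 with TCQA, against 9.02 and 9.30 in control. Astrocyte markers had means of 12.45 and 12.63 with TCQA, against 12.30 and 12.38 in control. These counts describe brightness against the control probe sets and do not measure how much of a region the tissue held.

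**Figure D5:**
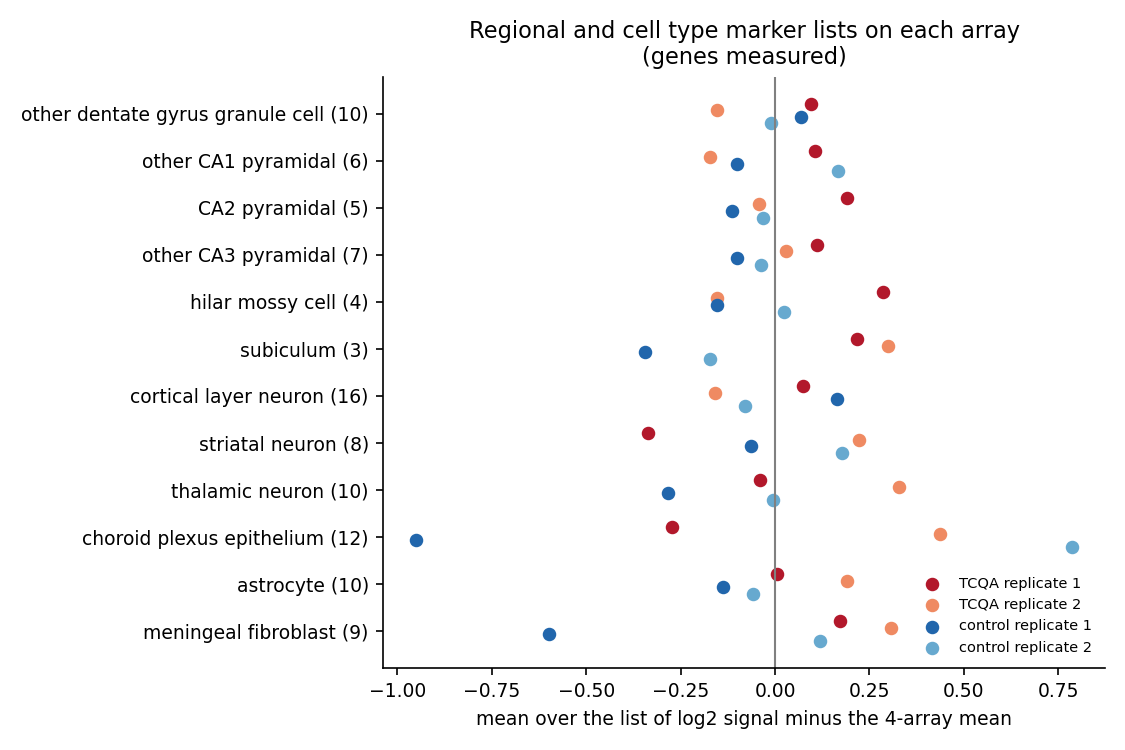
Mean over each marker list of log2 signal minus each gene's 4-array mean, by array (points: TCQA replicates 1 and 2, control replicates 1 and 2; the number of genes measured is in brackets). The 6 hippocampal lists at the top span 0.21 to 0.64 between their highest and lowest arrays, and the choroid plexus list spans 1.74, with control arrays at -0.95 and 0.79.

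The genes whose array pattern was most like that of Lct, the member with the widest range, were sought among 10046 probe sets with 1 symbol and a mean at or above the median of all. Likeness was the largest deviation, over the 4 arrays, between profiles centred on their own means. The closest were Megf10 at 0.11, Actn1 at 0.14, Stard4 at 0.15, Pygl at 0.17 and Tbc1d31 at 0.17, and 11 probe sets lay within 0.2. None of the 5 named genes was in a hippocampal list. The members and all genes under that median were left out of the search, so nothing is concluded from this. The mean profile of the 3 dentate members was nearly flat, and 3818 probe sets lay within 0.2 of it, the closest being Plppr3, Gm4832, Cnksr2, Pcbp4 and Phf21a at up to 0.011, so that this profile singles out no gene.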

How the data were processed

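The values are the authors' deposited log2 signals, 1 per probe set, from Clariom S mouse arrays. Per the labels' protocols they were made with SST-RMA in the Transcriptome Analysis Console (version 4.0.2), which normalizes the arrays to a common distribution. No genome build of the probe annotation is named in the sources used here. The 28846 probe sets held 6640 controls, left out of the tests. Of the other 22206, 19572 had 1 symbol, 0 several, and 2634 were not named here. Symbols were updated through the RefSeq gene table. Groups came from the sample titles. TCQA minus control was fitted with limma 3.58.1 in R 4.3.3 (lmFit and eBayes, two-sided, 2 residual and 4.23 prior degrees of freedom), with Benjamini-Hochberg adjustment over all 22206. The median SE was 0.20, and with 2 arrays a group the number of arrays limits precision.

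Members and lists were chosen with earlier results of these data known, and the brightest probe set stood for a list gene. All members were named, with up to 4 genes of smallest p per list (for the hippocampal lists). Of the other lists, Ttr apart, only genes with an unadjusted p under 0.05 were named. The 4 arrays correlated across genes at 0.991 to 0.993. In 5 simulations of this comparison (22206 genes), 58% of genes raised by 1.5 and 97.8% of those raised by 3 (log2) passed the adjusted threshold. The simulated noise was independent between arrays and held no difference in tissue content. Both sizes exceed every member difference, so the rates do not tell whether changes of the members' size would be found. Same-numbered arrays of the groups are not stated to be paired, and the correlation of their deviations was 0.05. Alternatives changed the moderation, the prior, a replicate block, the normalization, the dim probe sets and the arrays kept.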

Additional observations from a re-analysis of the deposited data

How the results depend on the processing

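No member passed limma's adjusted threshold under any of the 10 alternatives, where the members' adjusted p ran from 0.762 to 0.998. Under the 6 alternatives that kept all arrays, every member measured kept its sign. Leaving out the dim probe sets kept 3 of the 8 members (Wfs1, Iyd and Dkk3), and without them 33 probe sets met the depositors' criterion in place of 83. Without empirical Bayes moderation 25 did. With the replicate number as a replicate block, which is not known to pair the samples, 92 did and 0 passed the adjusted threshold, and the block changed no call of a member. Leaving out 1 array, where the lone array of a group is taken to vary like the other group, gave 160 to 291 probe sets past the criterion, 0 to 4 past the adjusted threshold (4 without TCQA replicate 1), and 0 to 1 members at an unadjusted p under 0.05 (Lct, without control replicate 1). The differences then ran from -0.18 to 0.29 for Dkk3, -0.10 to 0.55 for Dsp, -0.25 to 0.057 for Fibcd1, -0.51 to 0.044 for Iyd, -0.48 to 0.69 for Lct and -0.21 to 0.26 for Wfs1, each with a change of sign. For Tdo2 they ran from -0.59 to -0.13 and for Spink8 from 0.04 to 0.33. The cause was not tested. Over the 35 other hippocampal genes, the median was -0.03 without TCQA replicate 1 (3 higher and 3 lower at an unadjusted p under 0.05) and 0.25 without TCQA replicate 2. Of the 8 members, 5 had a mean below the median negative control, so their differences may reflect little of the transcript. Their SEs ran from 0.19 for Fibcd1 to 0.37 for Lct, against 0.25 for Wfs1 and 0.22 for Dkk3.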
